A study of Mus musculus with 6 samples.

Results

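The enzymes that write, copy and remove DNA methylation, with those of the methionine cycle that supply their methyl groups, were followed as a set of 10 genes in HK-2, an immortalized human kidney line that derives from the proximal tubule. The genes were DNMT1, DNMT3A, DNMT3B, UHRF1, TET1, TET2, TET3, MAT2A, AHCY and MTR, and all 10 were found by symbol among the 39234 genes of the deposited table. The set was chosen by the counts of DNMT3B, which were higher in USAG-1-overexpressing cells, and the other 9 genes were added for their function. The values of DNMT3B in this comparison are therefore given as a description without a test. For the other 9 genes the adjusted p-values of the fit over all genes are given.

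The study sequenced RNA from 6 libraries of HK-2 cells, 3 control libraries and 3 libraries with overexpression of USAG-1, the secreted protein encoded by SOSTDC1. Both groups carry the label WT for genotype and come from the same line, whose identity was not authenticated by STR profiling. In the study's cell experiments overexpression was by transient transfection of a plasmid, and what the control cells received is not stated for these libraries. Mouse is named as the organism in the labels, although the line, the genome build hg38 and the gene identifiers are human. They do not say whether replicates came from separate cultures, so p-values measure the spread between these libraries, which may be technical.

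DNA methylation is the addition of a methyl group to cytosine, mostly at CG dinucleotides. DNMT3A and DNMT3B place new marks, DNMT1 copies existing marks onto the daughter strand after replication, and UHRF1 guides DNMT1 to half-methylated sites. The TET enzymes oxidise methylcytosine as a step towards its removal. Each methylation consumes S-adenosylmethionine, which MAT2A makes from methionine and ATP. AHCY clears the by-product S-adenosylhomocysteine, which inhibits methyltransferases, and MTR remethylates homocysteine to methionine with a methyl group from folate. RNA levels of these genes were measured here. DNA methylation, proteins and metabolites were not analysed.

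Reads counted per library ranged from 41236194 to 48699471, and 3 counts, the level that a count of 0 allows, corresponded to 0.0607 to 0.0718 CPM (counting error only). For SOSTDC1, the overexpressed gene, 79, 80 and 60 reads were counted in control and 5072, 3907 and 4438 in USAG-1-overexpressing libraries. Control replicate 3 stood apart within its group. Its counts differed from those of the other control libraries with a chi-square per degree of freedom of 42.3 and 42.7, beside 6.52 to 8.35 for the other pairs within a group. Results for the members are therefore given also without it. Kidney epithelial identity was mixed, with PAX8 at 365 to 380 CPM in control and 440 to 455 CPM in USAG-1-overexpressing libraries, VIM at 1783 CPM or more and KRT8 at 970 CPM or more in every library. LRP2, which encodes the proximal tubule endocytic receptor megalin, had no count in any library. HNF4A, AQP1, CUBN and CDH1 were each at 0.359 CPM or less. PAX8 and GGT1 were called higher by edgeR in USAG-1-overexpressing cells (log2 fold change 0.26 and 0.55). In the same list LHX1, CDH16 and CDH6 were called lower (-0.71, -0.68 and -0.46).

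Markers of T and NK cells moved with the groups. Of 24 such genes, 22 were lower in USAG-1-overexpressing cells by the adjusted p, and their summed level was 152 to 176 CPM in control libraries and 38.4 to 50.4 CPM in USAG-1-overexpressing libraries. No marker of the list was at 0 in all libraries, and the T cell receptor constant gene TRAC was at 9.81, 9.84 and 11.0 CPM in control libraries and 0.870, 0.297 and 0.255 CPM in USAG-1-overexpressing libraries. The share of counts on mitochondrially encoded genes was 4.80% to 5.59% in control and 1.50% to 1.55% in USAG-1-overexpressing libraries. Over all genes tested, 15.9% passed by the adjusted p, beside 91.7% of the T and NK cell markers. Of the other marker lists, 5 of 13 kidney epithelial genes tested (38.5%, 2 higher, 3 lower) and 1 of 10 B cell genes (10%, CD22, higher) passed. So did 3 of 12 myeloid genes (25%, 1 higher, 2 lower) and 1 of 4 fibroblast and endothelial genes (25%, LUM, higher). The most abundant genes of the non-kidney lists were IL7R, GNLY and PTPRC for T and NK cells, CD22, BANK1 and CD79A for B cells, CD68, S100A9 and LYZ for myeloid cells, and LUM, COL1A1 and PECAM1. The part of other cells in the results below was not tested, and in bulk RNA fewer cells of a type and less RNA per cell cannot be told apart.

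Of the 9 members other than DNMT3B, 5 had an adjusted p under 0.05 by edgeR's quasi-likelihood test, with TET1, TET2 and TET3 higher and DNMT3A and MAT2A lower in USAG-1-overexpressing cells. Among all 18188 genes tested, 15.9% were called, 8.95% higher and 6.91% lower. The same 5 genes were those of the 9 whose groups did not overlap, a state found in 37.6% of all genes tested. DNMT1, UHRF1, AHCY and MTR overlapped between groups. The count of 5 depended on single libraries. It was also 5 without control replicate 3 (27% of all genes), where AHCY was gained and TET1 lost, and 5 by DESeq2 (20.3% of all genes). It was 2 without control replicate 1, when 1917 of all 18824 genes tested were called. It was 1 without control replicate 2 (1636 of 18716 genes) or USAG-1 overexpression replicate 1 (1306 of 18863 genes). It was 0 by edgeR without USAG-1 overexpression replicate 2 (5.98% of all genes) or 3 (1347 of 18995 genes), with 5 of the 9 at an unadjusted p under 0.05 in each case. Calls over the whole table thus also fell in these settings.

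**Figure D1:**
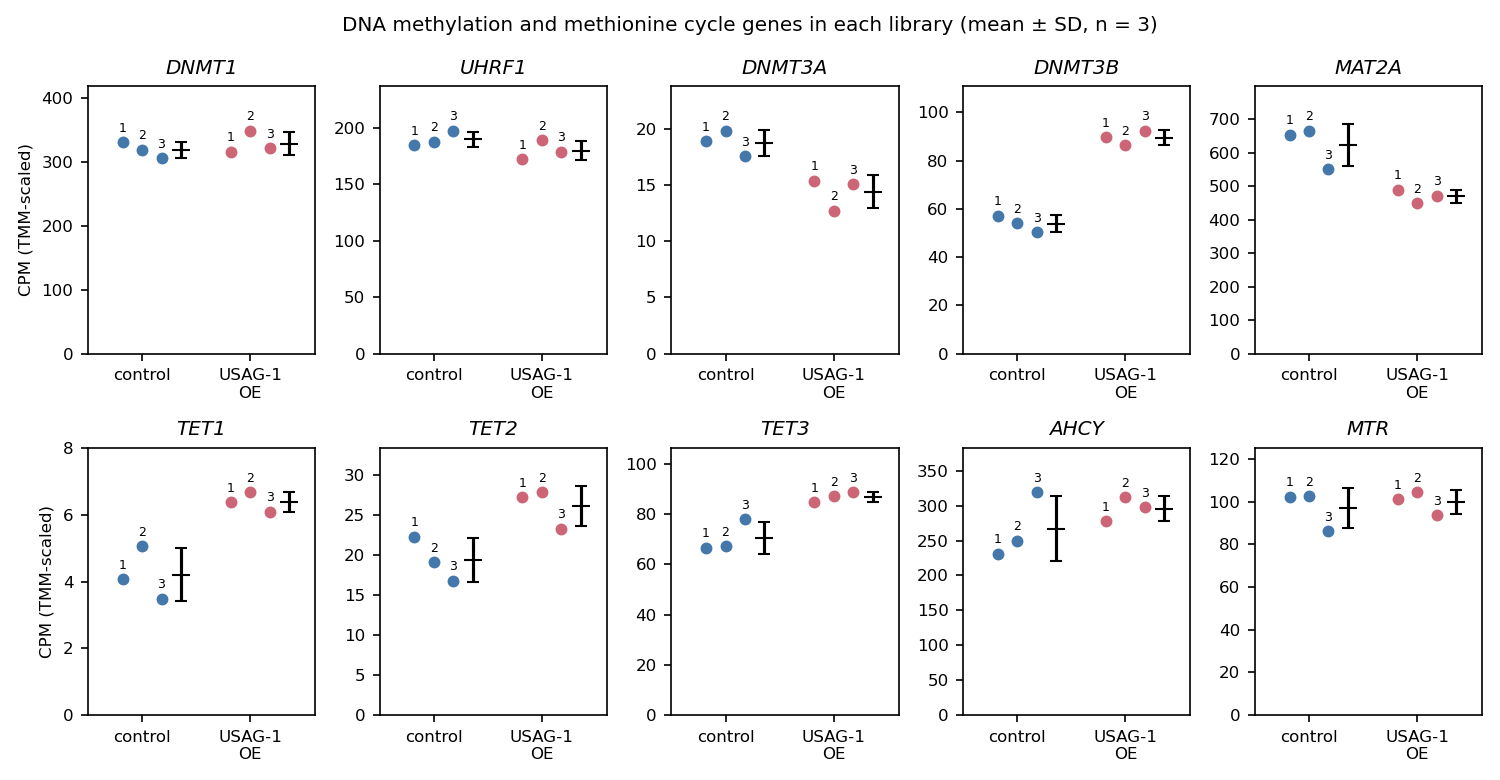
Level of each of the 10 genes in CPM after TMM scaling (vertical axis, from 0), by group. Points are single libraries numbered by replicate, and black bars are the mean ± SD of 3 libraries. The groups are apart for DNMT3B, DNMT3A, MAT2A and the 3 TET genes and overlap for DNMT1, UHRF1, AHCY and MTR. Among the controls, replicate 3 lies nearest to the USAG-1-overexpressing libraries for DNMT3A, MAT2A and TET3.

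Among the enzymes that place new methylation, the pair moved in opposite directions. DNMT3B (ENSG00000088305; hg38, chromosome 20, 32762385 to 32809356, plus strand) was at 57.2, 53.9 and 50.3 CPM in control libraries and at 89.7, 86.4 and 92.4 CPM in USAG-1-overexpressing libraries. Every USAG-1-overexpressing library was above every control library, while groups did not overlap in 37.6% of all genes tested. Because the rise of DNMT3B chose the set, this separation is a description and not a test. The mean was 53.8 ± 3.45 CPM (SD, n = 3) in control and 89.5 ± 3.00 CPM (SD, n = 3) with USAG-1 overexpression. The mean level was 1.66 times that of control, or 0.73 as log2 fold change with a standard error of 0.07. The log2 fold change ranged from 0.70 to 0.78 over 15 alternatives, all of which reuse these libraries. Counts per gene do not separate the catalytic from the inactive splice forms that DNMT3B is known for.

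DNMT3A (ENSG00000119772; chromosome 2, 25227855 to 25342590, minus strand) was at 18.9, 19.9 and 17.6 CPM in control libraries and at 15.4, 12.8 and 15.1 CPM in USAG-1-overexpressing libraries. All 3 USAG-1-overexpressing libraries were below all 3 controls, with replicate 2 the lowest. DNMT3A fell by 0.38 (log2, standard error 0.10), with an adjusted p of 0.0425 by edgeR. The call was lost under 8 of 15 alternatives. The adjusted p was 0.0873 to 0.147 when any single library other than control replicate 3 was left out, and 0.0164 without control replicate 3. With all 6 libraries it was 0.0686 with library sizes alone and 0.0826 without the filter on low counts. With a library left out the log2 fold change ran from -0.43 to -0.30.

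Because both genes were counted in the same libraries, their ratio does not depend on scaling. DNMT3B had 3.02, 2.71 and 2.86 counts for each count of DNMT3A in control libraries, and 5.82, 6.78 and 6.11 in USAG-1-overexpressing libraries. The ratio was thus 2.18 times as high with USAG-1 overexpression. Its numerator, DNMT3B, chose the set, so the shift is a description without a test. On the log2 scale DNMT3B changed by 0.73 and DNMT3A by -0.38. It was not adjusted for transcript length, so it shows the shift between groups and not which enzyme has more transcripts.

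The maintenance pair did not pass the test. DNMT1 (ENSG00000130816; chromosome 19, 10133342 to 10231286, minus strand) was at 331, 319 and 306 CPM in control and at 316, 349 and 322 CPM in USAG-1-overexpressing libraries. Its groups overlapped, and the log2 fold change of 0.05 had a 95% interval from -0.09 to 0.19 (adjusted p = 0.669). DNMT1 overlaps S1PR2 on the same strand, whose 1299 counts compare with 86304 for DNMT1 over all libraries.

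UHRF1 (ENSG00000276043; chromosome 19, 4903080 to 4962154, plus strand) was at 185, 188 and 198 CPM in control and at 172, 189 and 179 CPM in USAG-1-overexpressing libraries. USAG-1 overexpression replicate 2 lay among the controls, and the log2 fold change of -0.08 had an interval from -0.21 to 0.06 (adjusted p = 0.426). For each count of DNMT1 there were 0.558, 0.589 and 0.646 counts of UHRF1 in control and 0.546, 0.542 and 0.556 in USAG-1-overexpressing libraries, a ratio lower in all of the latter. Against PCNA, the sliding clamp of DNA replication, both genes were higher in all USAG-1-overexpressing libraries. UHRF1 had 0.593, 0.583 and 0.510 counts for each count of PCNA in control and 0.602, 0.606 and 0.600 in USAG-1-overexpressing libraries. DNMT1 had 1.06, 0.989 and 0.789 against 1.10, 1.12 and 1.08, both without overlap but with narrow gaps. PCNA itself was at 312, 322 and 388 CPM in control and 286, 312 and 298 CPM with USAG-1 overexpression (log2 fold change -0.19, adjusted p = 0.190 by edgeR). These ratios therefore also carry the change of PCNA, with control replicate 3 the highest. Relative to DNMT1, DNMT3A went from 0.0572, 0.0623 and 0.0574 to 0.0489, 0.0365 and 0.0470, also without overlap.

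**Figure D2:**
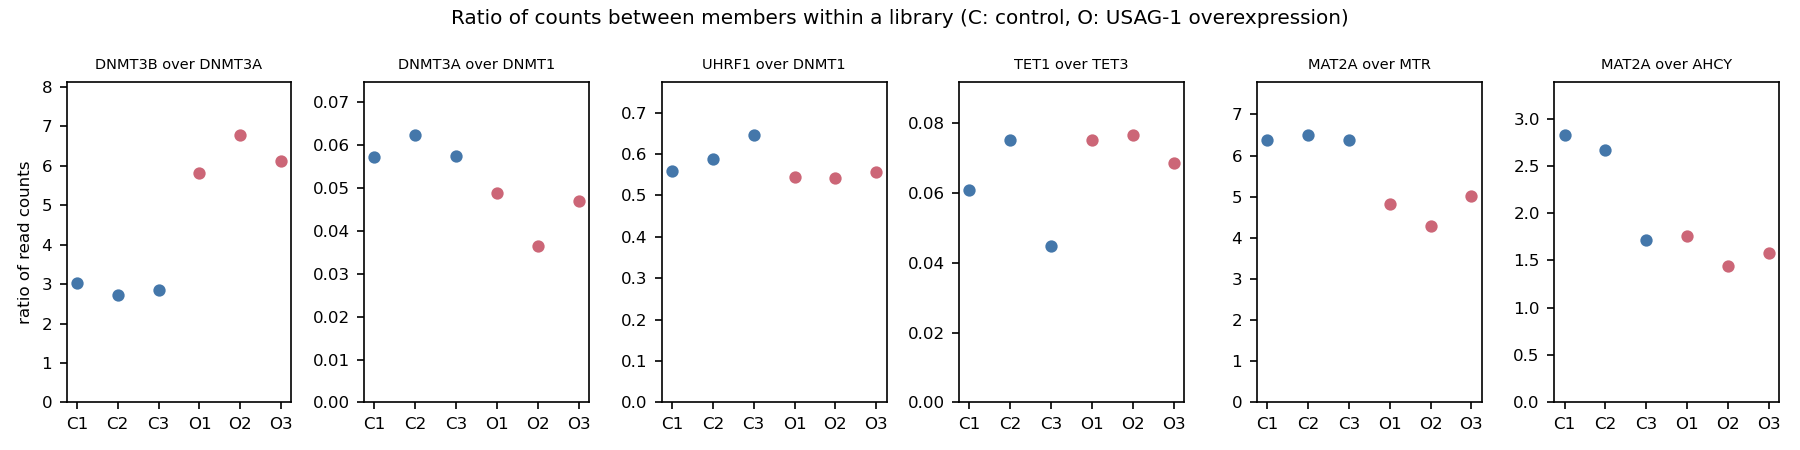
Ratio of read counts between pairs of members within each library (vertical axis, no unit, from 0), with control libraries C1 to C3 and USAG-1-overexpressing libraries O1 to O3. DNMT3B over DNMT3A is 2.71 to 3.02 in control and 5.82 to 6.78 with USAG-1 overexpression, shown without a test because DNMT3B chose the set. MAT2A over MTR is lower in every USAG-1-overexpressing library. MAT2A over AHCY is 1.72 in C3 and 1.76 in O1.

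All 3 TET genes were higher in USAG-1-overexpressing cells. TET3 (ENSG00000187605; chromosome 2, 73984910 to 74108176, plus strand) was at 66.7, 67.3 and 78.1 CPM in control libraries and at 84.9, 87.2 and 88.9 CPM in USAG-1-overexpressing libraries. Control replicate 3 was the highest control and came closest to the other group. With a log2 fold change of 0.30 and a standard error of 0.07, TET3 passed the test (adjusted p = 0.0313), and the change was 0.38 without control replicate 3 (adjusted p = 3.53e-04). Leaving out any other library gave an adjusted p of 0.0933 to 0.116, and testing without the filter on low counts gave 0.0572.

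TET2 (ENSG00000168769; chromosome 4, 105145875 to 105279816, plus strand) was at 22.3, 19.2 and 16.8 CPM in control and at 27.3, 27.9 and 23.3 CPM in USAG-1-overexpressing libraries. The lowest USAG-1-overexpressing library, replicate 3, was just above the highest control. TET2 rose by 0.43 (log2, standard error 0.12), with an adjusted p of 0.0455. The call was lost without control replicate 2 (adjusted p = 0.119) and without USAG-1 overexpression replicate 1 (0.152), 2 (0.164) or 3 (0.0659), and with all libraries under library sizes alone (0.0580) or without the filter on low counts (0.0830).

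TET1 (ENSG00000138336; chromosome 10, 68560337 to 68694487, plus strand) had the fewest reads of the set, with 170, 250 and 149 counts in control and 293, 292 and 263 counts in USAG-1-overexpressing libraries. In CPM these were 4.07, 5.06 and 3.49 against 6.38, 6.68 and 6.09. The control libraries varied more (coefficient of variation 18.9%) than those with USAG-1 overexpression (4.64%), and the groups did not overlap. TET1 rose by 0.60 (log2, standard error 0.17), with an adjusted p of 0.0478, and the adjusted p was 0.0539 to 0.152 when any library other than control replicate 2 was left out, 0.0371 without that one. With all 6 libraries it was 0.0566 with library sizes alone and 0.0930 without the filter on low counts, and the call was lost under 8 of 15 alternatives. TET1 overlaps COX20P1 on the same strand, whose 104 counts compare with 1417 for TET1 over all libraries. The ratio of TET1 to TET3 counts overlapped between groups, at 0.0610, 0.0752 and 0.0447 in control and 0.0751, 0.0766 and 0.0685 with USAG-1 overexpression.

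In the methionine cycle, MAT2A fell while AHCY and MTR did not pass the test. MAT2A (ENSG00000168906; chromosome 2, 85539168 to 85543218, plus strand) was at 653, 666 and 549 CPM in control libraries and at 489, 449 and 471 CPM in USAG-1-overexpressing libraries. Control replicate 3 was the lowest control but still above every USAG-1-overexpressing library. The mean was 623 ± 63.8 CPM (SD, n = 3) against 469 ± 20.0 CPM (SD, n = 3), and MAT2A fell by 0.41 (log2, standard error 0.08, adjusted p = 0.0127). Of the 5 calls among the members other than DNMT3B, this one held under the most alternatives, 12 of 15. Without control replicate 2 or USAG-1 overexpression replicate 2 or 3 the adjusted p was 0.0507, 0.0732 and 0.0618. The fall was larger without control replicate 3, at -0.48 (adjusted p = 5.74e-05).

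AHCY (ENSG00000101444; chromosome 20, 34280268 to 34303355, minus strand) was at 231, 250 and 320 CPM in control and at 278, 312 and 298 CPM in USAG-1-overexpressing libraries. Control replicate 3 was above all other libraries, so the groups overlapped, and the log2 fold change of 0.15 had a 95% interval from -0.12 to 0.41 (adjusted p = 0.432). Without that library it was 0.31 (adjusted p = 0.0035). Its pseudogenes AHCYP2 and AHCYP8 had 4 and 0 counts in all.

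MTR (ENSG00000116984; chromosome 1, 236795260 to 236913424, plus strand) was at 102, 102 and 86.0 CPM in control and at 101, 104 and 93.7 CPM in USAG-1-overexpressing libraries. Replicate 3 was the lowest in each group. The log2 fold change of 0.04 had an interval from -0.15 to 0.23 (adjusted p = 0.782) and was -0.030 without control replicate 3.

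Relative to MTR, MAT2A went from 6.39, 6.50 and 6.39 counts in control to 4.83, 4.30 and 5.02 in USAG-1-overexpressing libraries. All 3 control libraries were close to one another on this ratio, replicate 3 included. Relative to AHCY it went from 2.83, 2.67 and 1.72 to 1.76, 1.44 and 1.58, and here control replicate 3 lay below USAG-1 overexpression replicate 1.

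**Figure D3:**
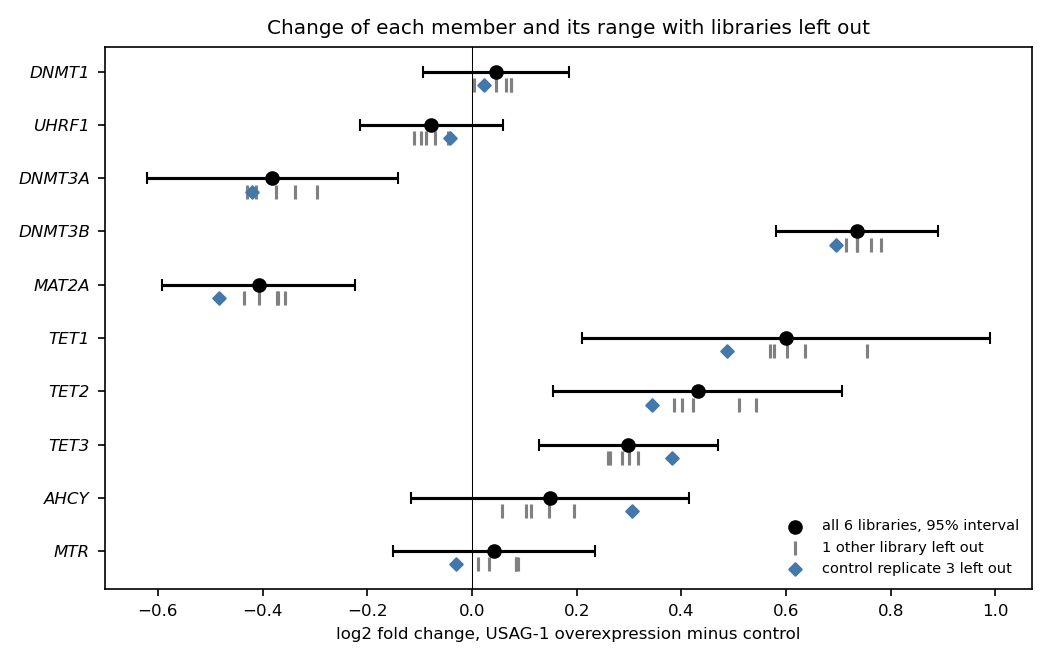
Log2 fold change of each member, USAG-1 overexpression minus control (horizontal axis), from edgeR with the 95% interval (black), and the values with 1 library left out (grey marks, blue diamond for control replicate 3). DNMT3B chose the set, so its interval is a description and not a test. The intervals of DNMT1, UHRF1, AHCY and MTR cross 0, and leaving out control replicate 3 moves AHCY from 0.15 to 0.31 and TET1 from 0.60 to 0.49.

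The partners, readers and repair factors of DNA methylation changed in both directions. Of 28 such genes tested, 7 were called (25%, beside 15.9% of all genes), 4 higher and 3 lower, with a median log2 fold change of -0.03 (-0.02 over all genes tested). GADD45A, a stress-response gene that has been tied to active DNA demethylation, rose from 50.4, 54.0 and 54.5 CPM to 86.7, 85.8 and 91.4 CPM (log2 fold change 0.73, standard error 0.06). CDCA7, which recruits the chromatin remodeller HELLS, fell from 57.8, 60.8 and 59.8 CPM to 43.3, 41.6 and 43.3 CPM (-0.48, standard error 0.06), whereas its paralogue CDCA7L rose (0.36, standard error 0.06). These 3 genes were called under all 15 alternatives.

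ZBTB4, a zinc-finger reader of methylated DNA, rose by 0.35 on the log2 scale. ALKBH5, an RNA demethylase that does not act on methylcytosine, rose by 0.30. CXXC5, a CXXC zinc-finger gene chosen after its values were seen, fell by 0.31. The count was 11 without control replicate 3 (27% of all genes) and 3 or 4 without any other single library (1137 to 1917 of all genes). DNMT3B, CDCA7, HELLS and ZBTB24 are the genes mutated in ICF syndrome, an immunodeficiency with hypomethylated centromeric repeats. The other two, also chosen after their values were seen, did not pass. HELLS was at 109, 115 and 82.3 CPM in control and 89.3, 80.5 and 84.0 CPM in USAG-1-overexpressing libraries (log2 fold change -0.27, adjusted p = 0.165), and without control replicate 3 it passed at -0.40. ZBTB24 had a log2 fold change of -0.07 (adjusted p = 0.591).

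The wider methionine, folate and transsulfuration pathway showed 5 calls among 43 genes tested (11.6%, beside 15.9% of all genes), 2 higher and 3 lower, and a median log2 fold change of 0.01. ENOPH1, an enzyme of the methionine salvage pathway, rose from 56.7, 54.8 and 52.1 CPM to 68.9, 69.8 and 72.1 CPM (log2 fold change 0.37) and was called under all 15 alternatives. SLC25A26, the carrier of S-adenosylmethionine into mitochondria, fell from 26.7, 26.5 and 32.8 CPM to 20.5, 19.2 and 18.3 CPM (-0.56, standard error 0.10).

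MTHFD2L, a mitochondrial folate enzyme, fell by 0.68, and GAMT, which uses S-adenosylmethionine to make creatine, fell by 0.37 on the log2 scale, both with calls that were lost when any library other than control replicate 3 was left out. Beside the members in the pathway, MTRR, the reductase that keeps MTR active, was at -0.19 (adjusted p = 0.0857) and MAT2B, the regulatory subunit of MAT2A, at -0.21 (adjusted p = 0.105), neither past the threshold and both chosen after their values were seen. MAT1A, the liver counterpart of MAT2A, had no count in any library. The count of calls was 16 without control replicate 3 (27% of all genes) and 2 or 3 without any other single library (1137 to 1917 of all genes).

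Histone methylation enzymes tied to DNA methylation had 4 calls among 24 genes (16.7%, beside 15.9%), all higher, with a median log2 fold change of 0.11. SETD1B, a methyltransferase of lysine 4 of histone H3, rose from 72.3, 69.6 and 69.5 CPM to 88.4, 89.6 and 86.1 CPM (log2 fold change 0.32, standard error 0.05), and KMT2C (0.37) and KMT2B (0.22), methyltransferases like SETD1B, also rose. KDM1B, a demethylase of the same residue, rose by 0.34. Other enzymes of that residue in the list, chosen after their values were seen, did not pass, namely KMT2A (adjusted p = 0.309), KMT2D (0.0802), SETD1A (0.102) and KDM1A (0.741). Only SETD1B was called under all 15 alternatives. The count was 10 without control replicate 3 (27% of all genes) and 3 without control replicate 2 (1636 of 18716 genes). It was 1, 1 and 2 without USAG-1 overexpression replicate 1, 2 and 3, when 1306, 1137 and 1347 of all genes were called.

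DNMT1 and UHRF1 are expressed mainly in replicating cells, so DNA replication genes were set beside them. Of 30, 3 were called (10%, beside 15.9%), with E2F1 higher (log2 fold change 0.25) and CCNA2 (-0.28) and MCM7 (-0.33) lower, and the median was 0.00. The count was 14 without control replicate 3 (27% of all genes) and 1 without control replicate 2 (1636 of 18716 genes). It was 0 by edgeR without any 1 of the USAG-1-overexpressing libraries, with 6, 4 and 8 at an unadjusted p under 0.05. In these settings 1306, 1137 and 1347 of all genes were called.

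Germline and cancer-testis genes, many of which promoter methylation keeps silent in somatic cells, were also examined. They gave 0 calls by edgeR, DESeq2 or limma-voom among the 6 tested of 23 found in the table, with 2 at an unadjusted p under 0.05 by edgeR (30.5% of all genes tested). Of the 23, 9 had no count in any library, DAZL, DDX4 and TEX101 among them. The list was not silent throughout. TDRD9, chosen after its values were seen, was at 47.9, 49.9 and 41.2 CPM in control and 51.2, 51.3 and 48.3 CPM in USAG-1-overexpressing libraries (adjusted p = 0.387 by edgeR). TEX15, chosen likewise, was at 2.65 to 6.24 CPM in control libraries. TEX19 was at 3.54, 3.91 and 3.56 CPM in control and 2.26, 2.59 and 2.64 CPM in USAG-1-overexpressing libraries (log2 fold change -0.56, adjusted p = 0.0544). PIWIL2 was at 0.383, 0.202 and 0.234 CPM against 0.849, 0.343 and 0.695 CPM (adjusted p = 0.147), with overlap between groups. SOHLH2 was called without control replicate 1 and STK31 without control replicate 2, in each case after the only control library with counts of that gene was removed. SOHLH2 was at 0.407, 0 and 0 CPM in control and 0.326, 0.206 and 0.232 CPM in USAG-1-overexpressing libraries, and STK31 at 0, 0.263 and 0 against 0.566, 0.549 and 0.255 CPM.

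**Figure D4:**
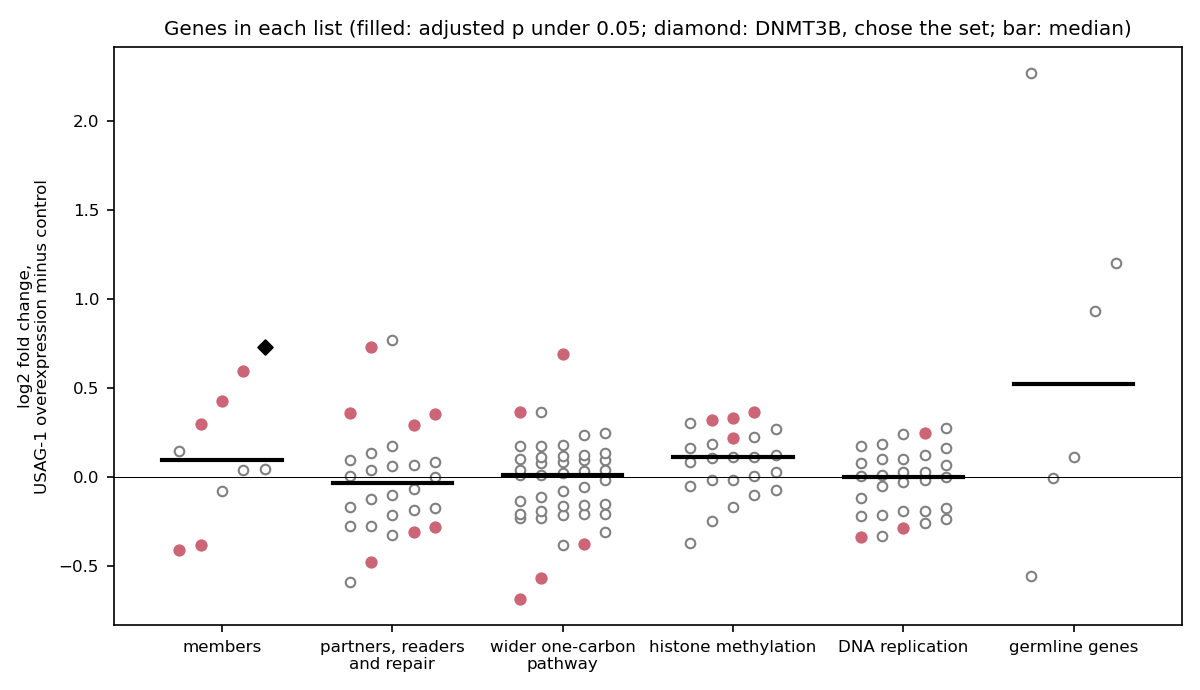
Log2 fold change, USAG-1 overexpression minus control (vertical axis), of each gene that passed the filter in the 6 lists. Filled points have an adjusted p under 0.05 by edgeR, and the black diamond is DNMT3B, which chose the set and is shown without a test. Bars are medians, which lie between -0.03 and 0.11 except for the 6 germline genes. Of these, PIWIL2, STK31 and SOHLH2 had at most 39 counts in a library.

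The 5 genes whose log2 CPM followed that of DNMT3B most closely over the 6 libraries, among 11099 genes with a mean of at least 5 CPM, were CTBP2 (Pearson's r = 0.999), SNAPC5 (0.998), IRS2 (0.998), FGD4 (0.998) and NCOA3 (0.997). All 5 were higher in USAG-1-overexpressing cells, by 0.36, 0.36, 0.40, 0.90 and 0.48 on the log2 scale. With libraries in 2 separate groups, such a correlation mostly describes the difference between groups. The shared direction of these 5 genes thus followed from how they were picked and is no separate result.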

How the data were processed

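RNA from 6 HK-2 libraries, 3 control and 3 USAG-1 overexpression, was analysed, with groups and replicate numbers from the sample titles. The authors deposited raw read counts per gene, 1 column per library, under a name that speaks of FPKM. The submitters' processing notes name cutadapt 1.9, FastQC and hg38. The aligner, the counting tool and the annotation are not given in the sources used here. The labels describe strand-specific poly(A) libraries and, elsewhere, removal of ribosomal RNA.

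In R 4.3.3, edgeR 4.0.16 was used for the filter on low counts (filterByExpr), TMM scaling and the quasi-likelihood test, without a replicate block. Adjusted p-values are Benjamini-Hochberg values over 18188 genes, called under 0.05 at any fold change. Levels are CPM on the TMM scale. Standard errors were obtained from the fold change and its F statistic, and 95% intervals from these. The members and lists, typed from general knowledge, were chosen with earlier results of these data known. Members were named throughout, with up to 6 called genes per list (the 2 with the smallest p where fewer than 2 were called), the 3 most abundant markers of each marker list, and the 5 genes most like DNMT3B. Other genes were chosen after their values were seen. Alternatives were DESeq2 1.42.0, limma-voom (limma 3.58.1), other scalings, filters and library sizes, a replicate block and leaving out each library. The code was tested on simulated data. Human sequences were not used here, and some genes that the lists count are not reported here by name.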

Additional observations from a re-analysis of the deposited data

How the results depend on the processing

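Leaving out 1 library moved the number of genes called over the whole table (2885) to between 1137 and 5091, the members other than DNMT3B called (5) to between 0 and 5, the partners, readers and repair genes (7) to between 3 and 11, the wider one-carbon genes (5) to between 2 and 16, the histone methylation genes (4) to between 1 and 10, the germline genes (0) to between 0 and 1 and the DNA replication genes (3) to between 0 and 14. Each highest value, apart from that of the germline genes, was without control replicate 3. With library sizes alone 2 of these members and 5 DNA replication genes were called. Without the filter on low counts, when 32507 genes were tested, 1 was called, MAT2A. DESeq2's Wald test called 8 histone methylation and 5 DNA replication genes, and 7 histone methylation genes were called when library sizes excluded mitochondrially encoded genes. The causes of these shifts were not tested. With at least 10 counts in every library, 14 T and NK cell markers were called in place of 22, since fewer were tested. The log2 fold change of MTR, not called, ranged from -0.030 (without control replicate 3) to 0.089 with libraries left out. Of the other values for named genes other than DNMT3B, 101 lost and 2 gained the threshold and 496 kept direction and side.

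No pairing by replicate number was seen: deviations from the group means correlated at 0.07, -0.05 and 0.04 between same-numbered libraries, and not every library correlated best with its own number. With 3 libraries per group this check cannot exclude pairing. With a replicate block 2382 genes were called, and 3 of the 9 members, with DNMT3A (adjusted p = 0.0822) and TET1 (0.0529) not passing. Of the 23 germline genes in the table, 17 did not pass the filter on low counts, so no change in them was tested at this depth.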
